A study of Mus musculus with 22 samples.

Results

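The spleen comparison of NFKBIE-ko with NFKBIE-wt tumors used 8 of the 22 RNA-seq libraries of the series, 4 for each genotype, chosen by the genotype and compartment given in the sample titles. All groups were made from TCL1-355 TKO cells, a murine leukemia line derived from the Eμ-TCL1 model of chronic lymphocytic leukemia (CLL), in which a TCL1 transgene is expressed in B cells. NFKBIE-ko and NFKBIE-wt cells alike carried loss-of-function lesions of 3 tumor suppressor genes, among them Cdkn2a and Cdkn2b. In NFKBIE-ko cells exon 2 of Nfkbie had been targeted with Cas9 ribonucleoprotein, and NFKBIE-wt cells were mock-transfected controls. Cells of each genotype were first propagated separately in C57BL/6 mice, then injected intraperitoneally into C57BL/6 recipients (5 mice for each genotype) and recovered from the spleen after 10 days without purification, so that the RNA came from leukemic and host cells together. What the separate propagation did to the cells cannot be told apart from the edit. The other libraries were 8 from the peritoneal cavity (PC) and 6 from cells grown in vitro for 2 weeks (3 for each genotype). According to the paper, the cells for culture came from spleens of different mice and were grown separately. Per the methods, recipients of transferred leukemia cells were 2 to 3 months old. Their sex is not given in the sources used here, and the labels name the tissue of every library as blood.

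Nfkbie encodes IκBε, one of the IκB proteins that hold NF-κB dimers in the cytoplasm until signals from Toll-like, antigen or TNF receptors lead to their degradation. Freed dimers enter the nucleus and raise genes for chemokines, cytokines, adhesion molecules, survival factors and their own inhibitors. In the spleen, leukemic B cells lie among T cells, natural killer (NK) cells, red pulp macrophages, neutrophils and, in mice, developing red cells, and each of these leaves its own marker RNA in an unpurified library.

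The guide that separates the genotypes has a single perfect match in GRCm39, at chr17:45869436-45869455 on the forward strand, inside the coding part of exon 2 of Nfkbie (ENSMUSG00000023947, canonical transcript ENSMUST00000024742). The site is shown because every comparison rests on this cut, with the 3 bases of the PAM in capitals.
Nfkbie target site and PAM: agtgattcacgaagccccgtCGG
An edit at this site alters the protein and does not have to remove the RNA. Nfkbie RNA, summed over its transcripts, was at 121, 54.7, 110 and 113 counts scaled to library size (CPM) in NFKBIE-ko spleens 1 to 4 and at 72.8, 71.4, 76 and 123 CPM in NFKBIE-wt spleens 1 to 4. The groups overlapped, with log2 fold changes (NFKBIE-ko over NFKBIE-wt) of 0.19 ± 0.27 (SE, adjusted p = 0.73) with 8 libraries and 0.43 ± 0.24 (SE, adjusted p = 0.294) without NFKBIE-wt spleen 4. The RNA level of the target therefore does not check the labels.

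Among the NFKBIE-wt libraries, 2 did not match the others of their groups and a further 1 shared features of the other genotype. Across log2 CPM of expressed genes, NFKBIE-wt spleen 4 correlated with the NFKBIE-ko cultures at r = 0.967 to 0.975. With the NFKBIE-wt cultures it correlated at 0.892 to 0.976, the highest being NFKBIE-wt in vitro 1. Its correlation with the other NFKBIE-wt spleens was 0.874 to 0.91, whereas those 3 spleens and the NFKBIE-ko spleens correlated within their groups at 0.956 or more. Markers that only host cells should supply were at or near 0 in NFKBIE-wt spleen 4. It had 0.0383 CPM of hemoglobin Hba-a1 and 0 CPM of the neutrophil genes S100a8 and S100a9 and of the macrophage gene C1qa, against 94 to 554 CPM of Hba-a1 and 20.7 to 144 CPM of S100a9 in NFKBIE-wt spleens 1 to 3. In contrast, the culture labelled NFKBIE-wt in vitro 3 correlated with NFKBIE-wt spleens 1 to 3 at up to 0.982 and held 434 CPM of Hba-a1, 75.1 CPM of S100a9 and 6.26 CPM of C1qa. The other 5 cultures had 0.0781 to 0.417 CPM of Hba-a1. NFKBIE-wt in vitro 2 was closest to the NFKBIE-ko cultures (r = 0.973 to 0.978). Whether the libraries labelled NFKBIE-wt spleen 4 and NFKBIE-wt in vitro 3 were exchanged was not tested, and no library was moved to another group. Every result below is given with all 8 spleens and with 7, that is, without NFKBIE-wt spleen 4, and levels in culture are given beside the label. Total estimated counts were close together, at 24971515 to 26345359 per spleen library. The B-cell markers Cd79a, Ms4a1, Pax5, Cd5 and Ighm were detected in every spleen library, with 488 to 867 CPM of Cd79a and 31.5 to 64.6 CPM of Cd5.

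Genome-wide, more genes changed than any 1 pathway holds, and leaving out the odd spleen more than doubled the number. A gene was called at a Benjamini-Hochberg adjusted p below 0.05 in edgeR's quasi-likelihood test and a fold change above 2. With 8 libraries, 171 of 12221 tested genes were higher (1.4%) and 194 lower (1.59%) in NFKBIE-ko spleens, and with 7 libraries 378 of 12471 were higher (3.03%) and 415 lower (3.33%). Of these calls, 167 higher and 182 lower genes were shared, and none changed direction. Nearly all were protein-coding (366 of 378 and 404 of 415 with 7 libraries). The gene lists used here to describe functions held 46 of 171 higher and 13 of 194 lower genes with 8 libraries, and 79 of 378 and 30 of 415 with 7, so that most called genes, above all the lower ones, lay outside them. The common biological coefficient of variation was 0.295 with 8 and 0.227 with 7 libraries. Among all tested genes, 16.2% with 8 libraries and 26.7% with 7 had levels that did not overlap between the genotypes. The 8-library counts depended on single libraries. Leaving out NFKBIE-ko spleen 1, 3 or 4 gave 50, 65 or 64 higher and 66, 59 or 71 lower genes, and leaving out NFKBIE-wt spleen 1, 2 or 3 gave 93, 112 or 67 higher and 118, 154 or 92 lower genes, whereas leaving out NFKBIE-ko spleen 2 gave 191 and 211. With 7 libraries no single library moved either count by more than 1.5 times. Of the calls of named genes, 21 of 58 with 8 and 66 of 99 with 7 libraries were kept whichever single library was left out.

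The genes with the largest rises belonged to several classes. Gzmb, which encodes granzyme B of cytotoxic lymphocytes, had 22.4, 18.3, 53.6 and 23.4 CPM in NFKBIE-ko spleens 1 to 4 and 2.66, 2.65, 3.24 and 0.153 CPM in NFKBIE-wt spleens 1 to 4 (log2 fold change 3.74 ± 0.68 with 8 and 3.35 ± 0.40 with 7 libraries, SE; adjusted p = 0.0191 and 0.00162). NFKBIE-ko spleen 3 was the highest. The genotypes did not overlap, which was a condition for every gene named among the largest changes. The Gzmb call was kept in 2 of 8 and 7 of 7 fits that left out 1 library. Cxcl9, a chemokine induced by interferon-γ that attracts T cells, had 9.54, 3.22, 6.27 and 3.39 CPM against 0.443, 0.285, 0.116 and 0 CPM (4.70 ± 0.79 and 4.29 ± 0.58; adjusted p = 0.0142 and 0.00262). The complement genes C3 and Cfb rose as well. C3, the central complement component, had 120, 13.6, 29.6 and 31.5 CPM against 4.06, 5.21, 2.89 and 0.422 CPM (3.94 ± 0.83 and 3.58 ± 0.74; adjusted p = 0.0303 and 0.0168), with NFKBIE-ko spleen 1 far above the rest. Cfb, complement factor B, had 35.8, 3.3, 14.1 and 10.9 CPM against 1.09, 0.244, 0.848 and 0 CPM (4.85 ± 0.99 and 4.44 ± 0.85; adjusted p = 0.0279 and 0.0113).

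Further large rises were found in genes of other functions. Serpinb9d, of the family of granzyme B inhibitors, had a mean of 529 ± 115 CPM (SD, n = 4) in the edited spleens, 30.2 ± 12.4 CPM (SD, n = 4) in the mock spleens, and 35.4 ± 8.09 CPM (SD, n = 3) in the mock spleens without replicate 4. Cd4, the co-receptor of helper T cells, had 132, 163, 111 and 115 CPM against 7.36, 3.67, 4.9 and 24.2 CPM (3.66 ± 0.58 and 4.60 ± 0.28; adjusted p = 0.0111 and 0.000102). Its level was 79.6 to 109 CPM in the NFKBIE-ko cultures too, where Cd3e did not exceed 0.0815 CPM, so the Cd4 RNA was there without that T-cell marker. Pou2af3, a coactivator of POU2 transcription factors, had 61.7 to 83.6 CPM against 1.14 to 7.59 CPM. Tmed6 and Usp18, the latter an interferon-induced brake on interferon signaling, were also among the 10 largest rises with 8 libraries, and Usp18 was at 10.1 to 20.7 CPM against 1.38 to 1.57 CPM. Without NFKBIE-wt spleen 4, Axin2, a target and inhibitor of Wnt signaling, Kynu, of tryptophan breakdown, and Pla2g2d entered the 10 largest. Axin2 had 11.9 to 19 CPM in NFKBIE-ko spleens and 0.885, 1.38 and 0.81 CPM in NFKBIE-wt spleens 1 to 3, but 21.4 CPM in NFKBIE-wt spleen 4 (1.30 ± 0.98, adjusted p = 0.467, with 8 and 3.90 ± 0.27, adjusted p = 0.000186, with 7 libraries).

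Of the genes with the largest falls, Fermt2 and Grb10 were close to absent in NFKBIE-ko spleens. Fermt2, which encodes kindlin-2, an activator of integrins, had 0.269, 0, 0 and 0 CPM in NFKBIE-ko spleens and 82.2, 31.9, 26.1 and 77.3 CPM in NFKBIE-wt spleens (log2 fold change -9.56 ± 0.84 with 8 and -9.33 ± 0.77 with 7 libraries, adjusted p = 0.00097 and 0.000285), a fitted value that depends on the prior count. Grb10, a growth factor receptor adaptor, had at most 3 counts in any NFKBIE-ko spleen and 14.2, 5.29, 4.13 and 34.7 CPM in NFKBIE-wt spleens. With NFKBIE-ko spleens set to 3 counts per library, the ratio of group means was at least 124-fold with 8 and 66.9-fold with 7 libraries. This bound on the means includes neither counting error nor the spread between libraries. Camk2b, a subunit of calcium/calmodulin-dependent kinase II, had 4.5, 6.6, 4.1 and 5.96 CPM against 306, 265, 402 and 115 CPM (-5.71 ± 0.40 and -5.95 ± 0.23; adjusted p = 0.000577 and 1.03e-05). Lrrn3, Iglon5, Slc25a34 and Akr1e1 followed, together with Foxp2, a forkhead transcription factor, at 1.37 to 2.82 CPM against 23.7 to 34.1 CPM. Cd93, a receptor found on early B cells, plasma cells and endothelium, had 2.93 to 6.24 CPM against 40.2, 40.5, 53.1 and 194 CPM. Without NFKBIE-wt spleen 4, the erythroid genes Car1, carbonic anhydrase 1, and Pklr, the red cell pyruvate kinase, entered the list, with Prlr and Cav1.

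Fermt2 and Grb10 were also near 0, and Camk2b low, in the NFKBIE-ko cultures and in 1 NFKBIE-wt culture. Fermt2 had 73.7, 0 and 47.8 CPM in NFKBIE-wt in vitro 1, 2 and 3 and at most 0.0379 CPM in the NFKBIE-ko cultures. Camk2b had 189, 3.91 and 371 CPM against 5.27 to 8.51 CPM, and Lrrn3 29.5, 1.52 and 53 CPM against 2.73 to 3.87 CPM. Of the 194 genes called lower with 8 libraries, 91 were more than 1 log2 unit above the mean of the NFKBIE-ko cultures in NFKBIE-wt in vitro 1 and 90 in NFKBIE-wt in vitro 3, but 12 in NFKBIE-wt in vitro 2. What sets this culture apart from its label was not tested.

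**Figure D1:**
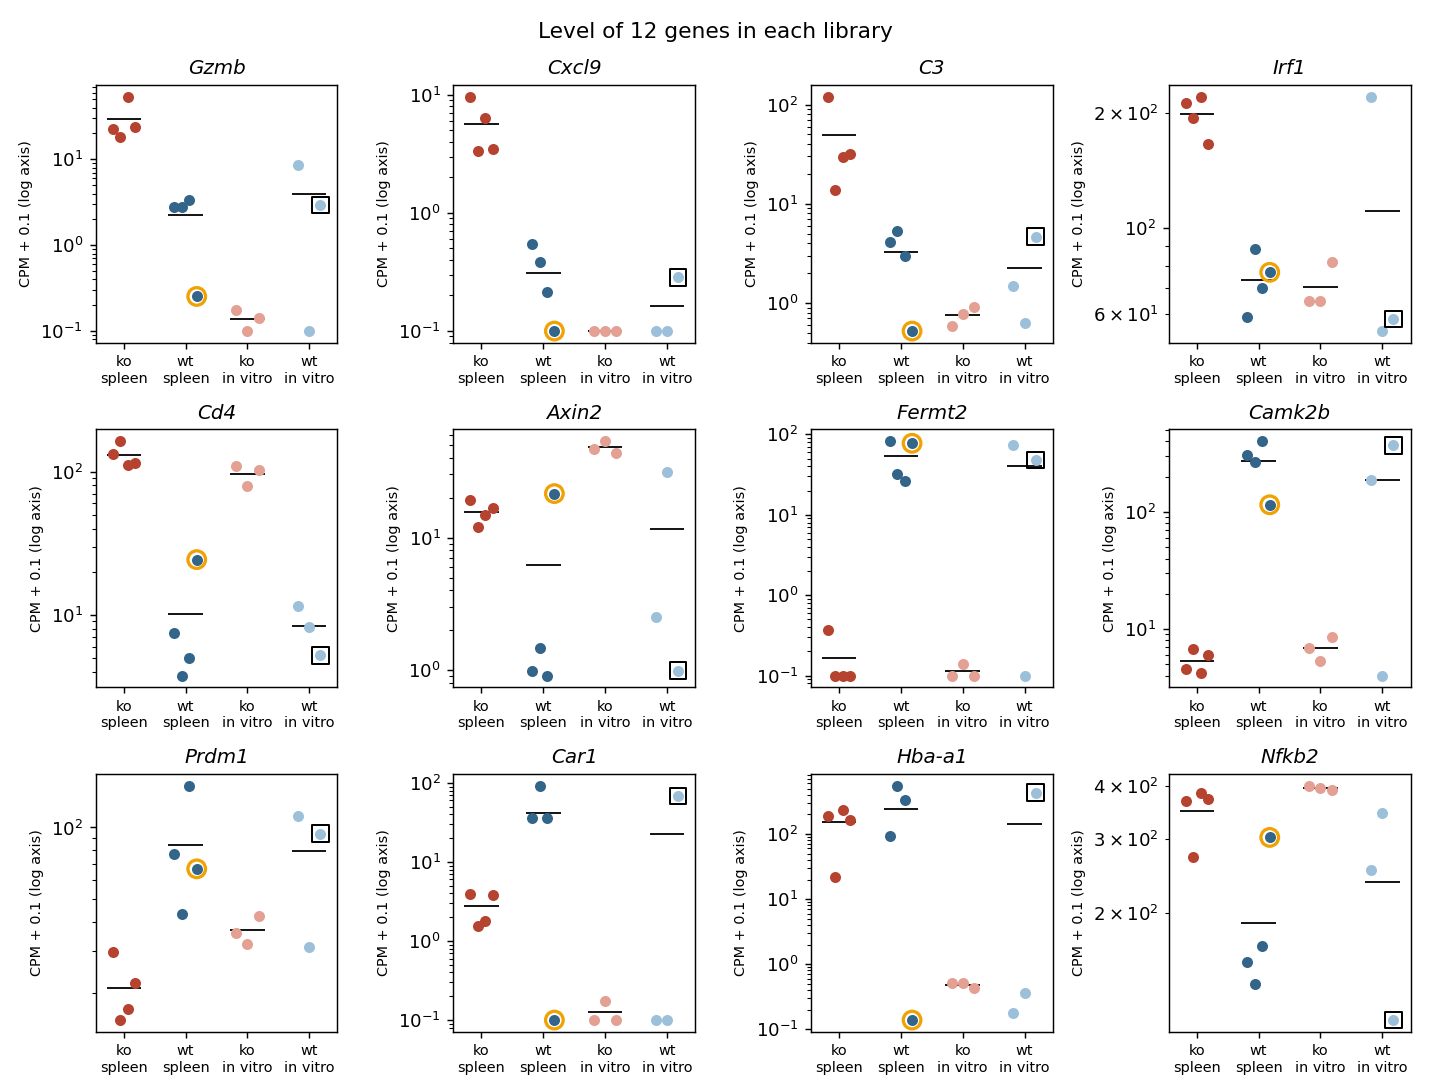
Each panel plots 1 gene as CPM + 0.1 on a log axis in the 4 NFKBIE-ko and 4 NFKBIE-wt spleens and the 3 + 3 cultures, with the mean of each group as a bar. NFKBIE-wt spleen 4 is ringed and NFKBIE-wt in vitro 3 is boxed: for Hba-a1 and Car1 the ringed spleen lies with the cultures and the boxed culture with the spleens, and for Fermt2 and Camk2b 1 NFKBIE-wt culture lies with the NFKBIE-ko libraries.

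Marker RNA of host cells was followed first, since it bears on the functional groups. In bulk RNA, more cells of a type and more RNA per cell cannot be told apart. Over 88 markers of T cells, cytotoxic and NK cells, macrophages, monocytes and dendritic cells, and neutrophils, the summed level was 0.198 to 0.257% of counts in the NFKBIE-ko spleens, 0.173 to 0.206% in NFKBIE-wt spleens 1 to 3, and 0.0834% in NFKBIE-wt spleen 4, inside the 0.0713 to 0.0899% of the 5 cultures other than NFKBIE-wt in vitro 3 (0.203%). A large part of the sum in the spleens was the T-cell list (1140 to 1380 CPM of 1980 to 2570 CPM in NFKBIE-ko spleens), and that list stood at 495 to 566 CPM in the NFKBIE-ko cultures, where Tcf7 had 164 to 207 CPM and Cd3e was close to 0, so the sum is not host RNA alone. The difference between genotypes did not pass an exact two-sided permutation test, with p = 0.0571 for 4 against 4 and p = 0.143 for 4 against 3 libraries (the smallest p possible is 0.0286). The ranges of the genotypes overlapped, and single cell lists differed in direction.

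The list of CD8+ cytotoxic and NK cell genes stood out among the cell lists. With 8 libraries 6 of its 15 tested members were higher and none lower, and with 7 libraries 10 were higher (Cd8a, Cd8b1, Gzmb, Gzmk, Prf1, Nkg7, Klrg1, Eomes, Ccl5 and Ifng) and none lower, with a median log2 fold change of 2.62 and 2.32 against medians near 0 over all tested genes (-0.0075 and -0.00024). Its summed level was 74.2, 75.9, 168 and 82.1 CPM in NFKBIE-ko and 19.9, 21.9, 16.8 and 5.18 CPM in NFKBIE-wt spleens, without overlap. Cd8a had 5.54, 5.49, 10.6 and 5.04 CPM against 1.37, 1.55, 0.501 and 0.0767 CPM (log2 fold change 2.92 ± 0.69 and 2.54 ± 0.44; adjusted p = 0.0423 and 0.00786). Its call was kept in 1 of 8 and 7 of 7 fits that left out 1 library. Prf1, the pore-forming perforin, had 6.77, 4.85, 13 and 6.35 CPM against 1.61, 1.02, 1.39 and 0.844 CPM (2.64 ± 0.37 and 2.51 ± 0.38; adjusted p = 0.00677 and 0.0044). Ifng, interferon-γ, chosen after its values were seen, had 1.77 to 4.86 CPM against 0.0383 to 0.774 CPM and was called with 7 libraries (adjusted p = 0.0185) but not with 8 (0.0558).

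Pan-T-cell genes moved less than the cytotoxic list, mostly upward. Of the 20 tested, 16 had a fold change above 0 in both fits (median log2 fold change 1.09 with 8 and 0.895 with 7 libraries). Of 20 tested T-cell genes, 2 were higher with 8 libraries, Tcf7 among them, and with 7 libraries 3 were higher, including Cd3e and Trbc2, and 2 lower (Zap70 and Ctla4). The T-cell receptor subunit gene Cd3e had 3.35, 5.73, 4.42 and 3.62 CPM in NFKBIE-ko and 2.05, 1.59, 1 and 0.115 CPM in NFKBIE-wt spleens (1.83 ± 0.63, adjusted p = 0.128, with 8 and 1.45 ± 0.33, adjusted p = 0.0221, with 7 libraries). Trac, the constant region of the α chain, had 17.3 to 28.5 CPM against 25.6 to 38.3 CPM in NFKBIE-wt spleens 1 to 3 and was not called (adjusted p = 0.835 and 0.134). Tcf7, a transcription factor of T cells, was at 292 to 355 CPM against 96 to 189 CPM, and since it had 164 to 207 CPM in the NFKBIE-ko cultures its RNA was also present without Cd3e. Ctla4, an inhibitory receptor, fell with 7 libraries, from 30, 39.5 and 63.1 CPM to 6.84 to 13.6 CPM (-2.20 ± 0.30, adjusted p = 0.00255), and NFKBIE-wt spleen 4 had 4.26 CPM.

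Most myeloid genes had a fold change above 0, but few were called. Above 0 were 15 of 17 macrophage genes with 8 and 16 of 17 with 7 libraries (median log2 fold changes 1.72 and 1.64). For monocyte and dendritic cell genes it was 13 of 16 and 15 of 17 (medians 0.945 and 1.22). Of 17 macrophage genes tested, 1 was higher with 8 and 4 with 7 libraries, and of the monocyte and dendritic cell genes 3 of 16 and 5 of 17, with none lower. The summed macrophage list was at 736, 170, 409 and 353 CPM in NFKBIE-ko and 170, 147, 166 and 129 CPM in NFKBIE-wt spleens, and 3 of the 4 macrophage genes called with 7 libraries (Csf1r, Timd4 and Vcam1) were low or not seen in the NFKBIE-ko cultures. Vcam1, an adhesion molecule of red pulp macrophages, had 193, 48.1, 111 and 107 CPM against 44.9, 34.8, 45.1 and 12.7 CPM (1.72 ± 0.47, adjusted p = 0.07, and 1.45 ± 0.39, adjusted p = 0.0423). Csf1r, the receptor for the macrophage growth factor CSF1, had 46.9, 11.4, 22.9 and 22.2 CPM against 8.57, 6.15, 9.95 and 0.613 CPM (adjusted p = 0.126 and 0.0387). Both calls rested on most libraries, since each was kept in 1 of the 7 fits that left out 1 library, the one without NFKBIE-ko spleen 2, with log2 fold changes of 1.07 to 1.7 for Vcam1 and 1.17 to 1.88 for Csf1r. C1qa, a complement component made by tissue macrophages, had 38.6, 4.49, 19.3 and 16 CPM against 4.99, 3.26, 6.17 and 0 CPM and was not called (2.43 ± 0.97, adjusted p = 0.179, and 2.01 ± 0.60, adjusted p = 0.0625), with NFKBIE-ko spleen 2 among the NFKBIE-wt values. Cx3cr1, of patrolling monocytes, had 1.19 to 3.05 CPM against 0 to 0.204 CPM and was called in both fits. Adgre1 (F4/80) and Ms4a6c were called with 7 libraries only, and both were at 20.3 to 42.8 CPM in the NFKBIE-ko cultures, above their level in the NFKBIE-wt spleens 1 to 3.

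Neutrophil and red cell RNA was at or near culture levels in NFKBIE-wt spleen 4. No neutrophil gene of 13 or 14 tested was called, and S100a9 had 85.6, 45.1, 103 and 31 CPM against 80.2, 144, 20.7 and 0 CPM. Of 15 erythroid genes none was called with 8 libraries and 6 were lower with 7 (Epor, Gata1, Car1, Car2, Ermap and Rhag). The summed erythroid list was at 217 to 1200 CPM in NFKBIE-ko spleens, 537 to 2490 CPM in NFKBIE-wt spleens 1 to 3 and 306 CPM in NFKBIE-wt spleen 4. Car1 had 3.81, 1.43, 1.69 and 3.69 CPM in NFKBIE-ko spleens and 35.7, 92.2 and 36.1 CPM in NFKBIE-wt spleens 1 to 3, but 0 CPM in NFKBIE-wt spleen 4 (-3.96 ± 1.24, adjusted p = 0.101, and -4.37 ± 0.46, adjusted p = 0.000937). Car2, carbonic anhydrase 2, had 15.7, 2.62, 9.96 and 9.93 CPM against 30, 75.4, 43 and 0 CPM (adjusted p = 0.336 and 0.0171). Hemoglobin itself was not called. Hba-a1 had 192, 21.4, 232 and 165 CPM against 94, 554, 331 and 0.0383 CPM, so the genotypes overlapped. Megakaryocyte and stromal lists had 2 and 7 genes above the filter with 7 libraries, and none was called with either set.

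**Figure D2:**
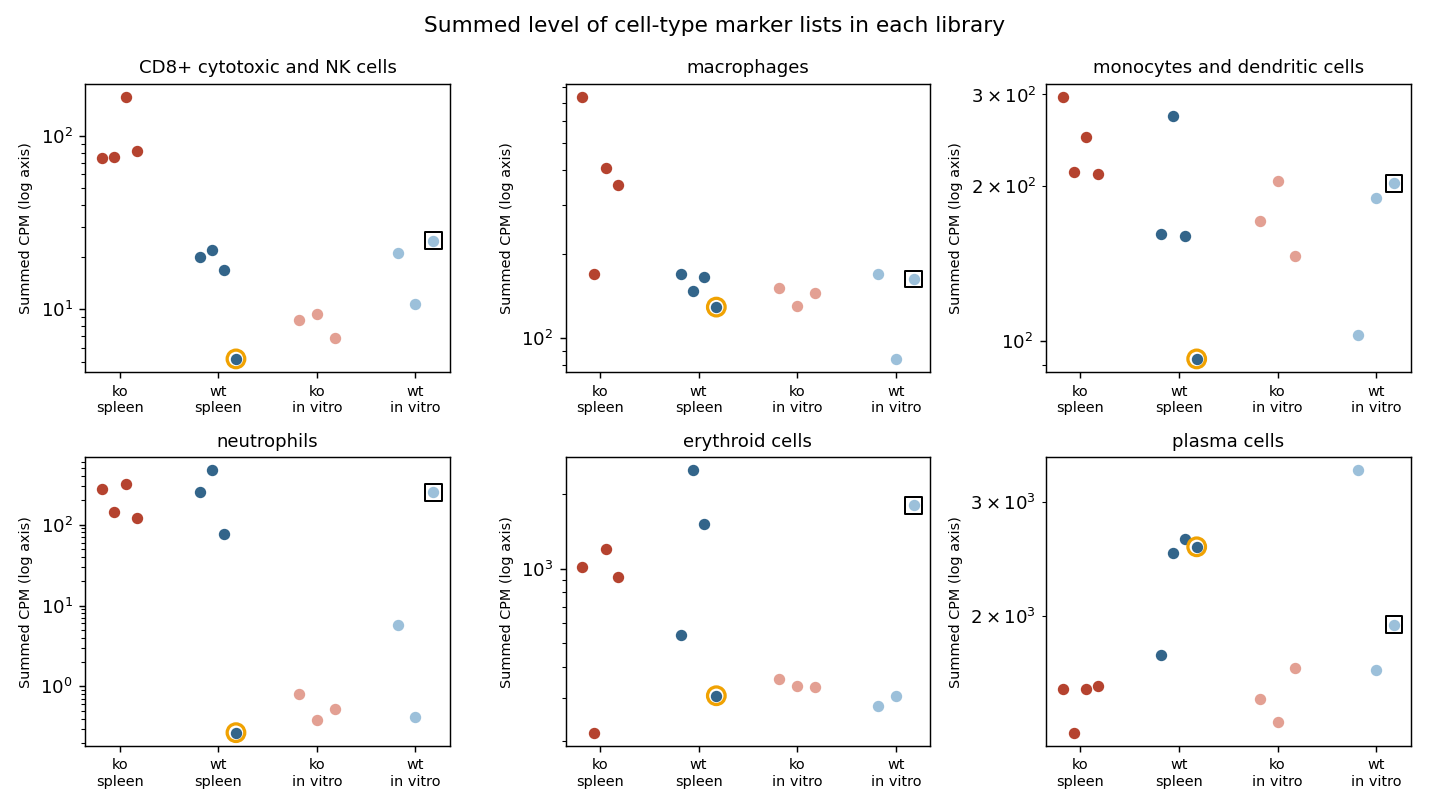
Summed CPM (log axis) of 6 marker lists in the 4 + 4 spleens and 3 + 3 cultures. Cytotoxic and NK genes lie at 74.2 to 168 CPM in NFKBIE-ko spleens, above every other library shown, and NFKBIE-wt spleen 4 (ringed) lies with the cultures for neutrophil and erythroid genes while NFKBIE-wt in vitro 3 (boxed) lies with the spleens.

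Genes that NF-κB is known to raise were often higher, and few genes of its own subunits and inhibitors were called. Of 27 tested target genes, 8 were higher with 8 libraries and 13 with 7, none was lower, and 27 and 26 of them had a fold change above 0 (medians 1.02 and 0.976 on the log2 scale). Icam1, an adhesion molecule, had 128, 66.7, 114 and 127 CPM in NFKBIE-ko and 33.7, 28.3, 31.5 and 65.6 CPM in NFKBIE-wt spleens (1.42 ± 0.31 and 1.79 ± 0.23; adjusted p = 0.0337 and 0.00205). Ltb, lymphotoxin β, had 183, 123, 254 and 205 CPM against 52.4, 81.9, 67.3 and 109 CPM (1.27 ± 0.27 and 1.50 ± 0.25; adjusted p = 0.0307 and 0.00657). Both were at comparable or higher levels in the NFKBIE-ko cultures, 91 to 102 CPM for Icam1 and 420 to 438 CPM for Ltb. NFKBIE-wt in vitro 1, 2 and 3 had 58.7, 95.3 and 22.5 CPM of Icam1 and 146, 236 and 58.2 CPM of Ltb. Of 15 genes for NF-κB subunits and inhibitors, none was called with 8 libraries and Nfkb2, the precursor of p52, with 7 (369, 272, 385 and 372 CPM against 153, 135 and 167 CPM, and 302 CPM in NFKBIE-wt spleen 4; adjusted p = 0.0924 and 0.00225).

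The TNF superfamily list shares Tnf, Lta, Ltb, Cd40 and Fas with the target list. With 8 libraries 4 of 22 were higher (Tnf, Ltb, Tnfsf4 and Cd40) and 1 lower (Tnfrsf13b), and with 7 libraries 8 of 23 were higher (Tnf, Lta, Ltb, Tnfsf4, Tnfsf9, Tnfrsf9, Cd40 and Fas) and none lower. Tnf had 13.3, 6.8, 10.3 and 8.77 CPM against 2.54, 3.38, 2.85 and 0.997 CPM (1.98 ± 0.37 and 1.73 ± 0.26; adjusted p = 0.0206 and 0.00423). Cd40, the receptor for T-cell help, had 29.6, 23, 46.5 and 38.5 CPM against 11.5, 10.5, 8.99 and 21.6 CPM. Tnfrsf13b, the TACI receptor for BAFF and APRIL, had 58.2, 75.3, 58.7 and 71.5 CPM against 123, 139, 117 and 149 CPM, a log2 fold change of -1.02 ± 0.13 with 8 and -0.95 ± 0.13 with 7 libraries (adjusted p = 0.00451 and 0.00265), so that the fold threshold alone decided its call.

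Chemokine and cytokine genes were called in 7 of 22 cases with 8 libraries and 11 of 23 with 7, all higher, and several of them (Ccl3, Ccl4, Ccl22, Cxcl10, Tnf and Ebi3) are also NF-κB targets. Ccl3 and Ccl4, which attract T cells and macrophages and were chosen for mention after their values were seen, had 5.89 to 13.4 and 2.86 to 5.9 CPM in NFKBIE-ko spleens against 0.383 to 3.18 and 0.153 to 0.937 CPM. Cxcl10, chosen in the same way, had 5.89 to 13.7 against 1.76 to 3.67 CPM. Csf1 had 19.5, 15.4, 16.3 and 18.5 CPM against 9.54, 5.74, 5.55 and 9.47 CPM (1.18 ± 0.22 and 1.31 ± 0.22; adjusted p = 0.0198 and 0.00639). Ccl22, which attracts regulatory T cells, was split within both genotypes. It had 224, 6.48, 169 and 206 CPM in NFKBIE-ko spleens and 8.77, 1.96, 6.48 and 107 CPM in NFKBIE-wt spleens, so that NFKBIE-ko spleen 2 and NFKBIE-wt spleen 4 each sat with the other genotype (2.25 ± 1.28, adjusted p = 0.326, and 4.70 ± 1.15, adjusted p = 0.0375). Among receptors and adhesion genes, 4 of 25 were higher in both fits, Ccr7, Cxcr6, Ackr3 and Gpr183, and S1pr2 was lower. Gpr183, which guides B cells toward oxysterols, had 16.1, 8.95, 11.3 and 9.16 CPM against 2.09, 1.38, 1.5 and 1.15 CPM (2.87 ± 0.28 and 2.76 ± 0.29; adjusted p = 0.00188 and 0.000902).

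With 7 libraries the interferon response list held more called genes than any other list, but not the largest share of its members. Larger shares were called among cytotoxic and NK genes (10 of 15) and NF-κB targets (13 of 27). Of 35 interferon genes, 8 were higher with 8 libraries and 14 with 7, none was lower, and 33 had a fold change above 0 in both fits (medians 0.998 and 1.01). Irf1, a transcription factor induced by interferon-γ and NF-κB, had 212, 194, 220 and 166 CPM against 58.6, 88.5, 70 and 76.8 CPM (1.41 ± 0.15 and 1.44 ± 0.17; adjusted p = 0.00218 and 0.00145). Gbp2, a guanylate-binding protein, had 52.2, 49.5, 59.3 and 42.7 CPM against 17, 13.4, 11.1 and 22.7 CPM (1.64 ± 0.22 and 1.87 ± 0.18; adjusted p = 0.00586 and 0.000648). Igtp was past the fold threshold with 7 libraries only (0.90 ± 0.20 and 1.09 ± 0.17, SE; adjusted p = 0.038 and 0.0051). In culture the order was different. Irf1 had 64.5 to 81.9 CPM in the NFKBIE-ko cultures and 220, 54 and 58 CPM in NFKBIE-wt in vitro 1, 2 and 3, and Igtp had 195 CPM in NFKBIE-wt in vitro 1 against 26 to 46.9 CPM in the other 5 cultures.

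Promoters of the called genes were searched for the letters GAAA repeated in the same direction after a gap of any 2 bases, the core of interferon-stimulated response elements, and for the κB consensus, on both strands of the window from 250 bases before to 50 bases after the RefSeq start site (GRCm38.p6). Such windows were found for 270 of the 378 higher and 317 of the 415 lower genes of the 7-library fit. The GAAA repeat was in 11.5% of the higher and 2.84% of the lower genes, against 4.02% of the 9229 tested genes with a window, and with 8 libraries it was in 7.81% and 2.65% against 4.03%. The κB consensus was in 17% of higher and 13.6% of lower genes against 12.1% of all. Matches of different motifs may overlap. For comparison, TATAAA was in 14.1% of higher and 14.8% of lower genes against 8.81% of all, so windows of called genes held more of this unrelated motif as well. The shares are descriptions, and a match is not a binding site. From called interferon and chemokine genes, 4 windows are printed in the direction of the gene, with the matched letters in capitals.
Cxcl10, GAAA repeat, chr5:92349073-92349122, gene on the reverse strand: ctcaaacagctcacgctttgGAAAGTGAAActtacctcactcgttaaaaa
Cxcl10, κB consensus, chr5:92349019-92349068, gene on the reverse strand: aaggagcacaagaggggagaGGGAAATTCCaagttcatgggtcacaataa
Gbp2, GAAA repeat on the opposite strand, chr3:142620584-142620633, gene on the forward strand: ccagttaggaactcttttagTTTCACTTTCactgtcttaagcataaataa
Irf1, κB consensus, chr11:53769981-53770030, gene on the forward strand: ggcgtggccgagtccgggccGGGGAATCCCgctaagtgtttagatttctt

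Immune checkpoint and complement genes were mixed. Of the checkpoint list 3 of 17 genes were higher and 1 lower with 8 libraries, and 5 of 18 higher (Lag3, Tigit, Havcr2, Tox and Cd274) and 3 lower (Ctla4, Btla and Cd200) with 7. Cd274, the ligand PD-L1, had 25.7, 40.6, 19.1 and 18.4 CPM against 10.7, 10.9, 9.95 and 11.2 CPM (1.26 ± 0.25 and 1.29 ± 0.28; adjusted p = 0.024 and 0.0179). Lag3 had 5.85, 4.49, 9.96 and 5.46 CPM against 3.02, 2.44, 1.77 and 1.53 CPM (1.53 ± 0.33 and 1.40 ± 0.33; adjusted p = 0.032 and 0.0258). Both were present in the NFKBIE-ko cultures, at 14.9 to 20.7 and 2.97 to 3.7 CPM. Fits that left out 1 library kept the Cd274 call in 3 of 8 and 3 of 7 cases, and the Lag3 call in 2 of 8 and 3 of 7. Tigit, chosen after its values were seen, had 2.08 to 3.62 against 0.345 to 1.2 CPM and at most 0.222 CPM in those cultures. Cd200 and Btla, both inhibitory surface molecules of B cells among others, were lower, Cd200 at 15.4 to 17.4 CPM against 26.1 to 53.7 CPM. Of the complement and Fc receptor genes, 5 of 22 were higher with 8 and 8 of 23 with 7 libraries. Cfp, properdin, had 57.1, 25.1, 43.4 and 33.2 CPM against 9.86, 6.48, 6.71 and 19.5 CPM (adjusted p = 0.031 and 0.00208). Cr2, complement receptor 2, fell with 7 libraries from 5.92, 8.96 and 8.52 CPM to 1.12 to 1.35 CPM.

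**Figure D3:**
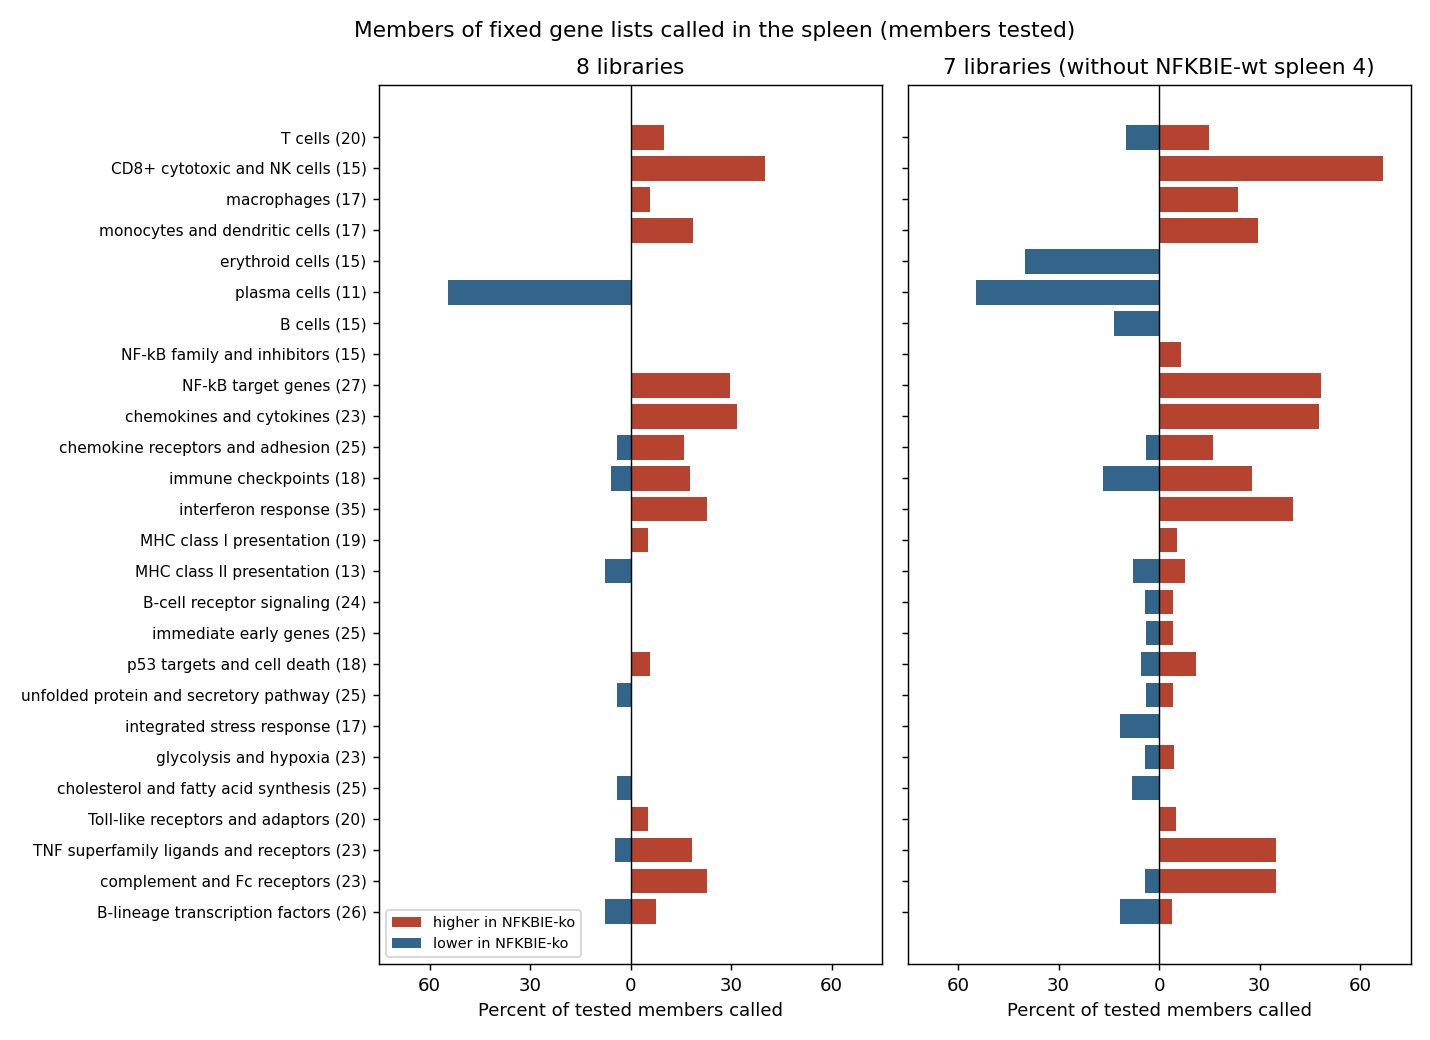
Percent of the tested members of each gene list called higher (right) or lower (left) in NFKBIE-ko spleens with 8 and with 7 libraries, the number tested with 7 libraries in brackets and lists without a call left out. Cytotoxic and NK genes reach 10 of 15 and NF-κB targets 13 of 27 higher with 7 libraries, plasma cell genes 6 of 11 lower in both, and erythroid genes 6 of 15 lower with 7 libraries only.

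On the lower side, plasma cell genes were the one list with the same 6 called members in both fits (Sdc1, Prdm1, Jchain, Slpi, Eaf2 and Txndc5, of 11 tested). Prdm1, which encodes Blimp-1, the factor that drives plasma cell differentiation, had 29.8, 15.3, 17 and 21.9 CPM in NFKBIE-ko and 77.5, 43.1, 150 and 66.8 CPM in NFKBIE-wt spleens (-2.03 ± 0.38 and -2.12 ± 0.40; adjusted p = 0.0206 and 0.0102). Jchain, the joining chain of secreted IgM and IgA, had 2.77, 1.51, 2.57 and 1.65 CPM against 11.3, 22.2, 8.45 and 10.1 CPM. Txndc5, a disulfide isomerase of the secretory pathway, had a mean of 333 ± 21.1 CPM (SD, n = 4) against 957 ± 250.1 CPM (SD, n = 4), or 982 ± 300.3 CPM (SD, n = 3) without the odd spleen. All 6 members had at least 50% of their NFKBIE-wt spleen level in the median NFKBIE-wt culture. Among B-lineage transcription factors Bach2, a repressor of Prdm1, was lower as well (4.19, 13.4, 3.37 and 5.12 CPM against 21.9, 22.7, 26.9 and 28.3 CPM). Runx3 was higher in both fits. Ighm, the IgM heavy chain, was at 4990 to 5810 CPM against 7540 to 7880 CPM, a log2 fold change of -0.54 ± 0.11 and -0.53 ± 0.13 (adjusted p = 0.0239 and 0.0343) that stayed under the fold threshold, and Cd79b, the B-cell receptor's β subunit, passed it with 7 libraries only (-1.10 ± 0.16, adjusted p = 0.00314).

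Lists of housekeeping and growth functions had few or no calls. Of 39 cell cycle, 26 oxidative phosphorylation and 30 ribosomal protein genes none was called in either fit. Mki67, a marker of cycling cells, had 335 to 853 CPM in NFKBIE-ko and 337 to 959 CPM in NFKBIE-wt spleens. In antigen presentation, Psme2, a proteasome activator subunit, was higher in both fits and H2-Ob, which restrains peptide loading, lower in both. Ciita, the master regulator of MHC class II, had 52.3, 41.4, 57.2 and 69.5 CPM against 24.4, 16 and 17.4 CPM, but 84.5 CPM in NFKBIE-wt spleen 4, and was called with 7 libraries only (0.60 ± 0.51, adjusted p = 0.528, and 1.50 ± 0.21, adjusted p = 0.00311). Pmaip1, a pro-apoptotic BH3-only gene, had 401, 458, 238 and 276 CPM against 81.7, 104, 101 and 21.4 CPM (2.14 ± 0.44 and 1.83 ± 0.24; adjusted p = 0.03 and 0.00234). Its call was kept in 1 of 8 and 7 of 7 fits that left out 1 library. Scd1, a fatty acid desaturase, fell in both fits (adjusted p = 0.0437 and 0.0142), and the median of the 24 or 25 cholesterol and fatty acid genes moved from -0.563 with 8 to 0.104 with 7 libraries.

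How far the called genes could come from host cells was read from their level in culture. Host cells carried over from the spleen should be gone there. For NFKBIE-wt in vitro 3 this did not hold, with a host marker sum of 0.203% of counts, an erythroid list at 1800 CPM and S100a9 at 75.1 CPM, and it is 1 of the 3 cultures used for the lower genes. Each gene was classed by its median level in the 3 cultures of the genotype with the higher spleen level. It was not seen (at most 3 counts in each), low (under 10% of the spleen mean), intermediate, or present (50% or more). Of the 171 genes higher with 8 libraries, 14 were not seen and 8 low, together 12.9%, against 7.14% of all 5996 tested genes with a fold change above 0, and 88 (51.5%) were present, against 85.3%. Of the 378 higher with 7 libraries, 44 were not seen and 23 low, together 17.7% against 6.72%, and 231 (61.1%) were present, against 86.7%. Most of the higher genes were thus at 50% or more of their spleen level in the cultured leukemia cells. The low and not seen share exceeded that of other genes, but this is partly fixed by the selection. Except for not seen, the classes divide by the spleen mean of the higher group, and that mean also enters the call. Called genes, higher or lower, therefore leave the present class more readily than other genes. A gene that leukemic cells switch on only in the spleen falls in the same class as a host gene. Host cells may also add RNA of a gene that is intermediate or present in culture. The low and not seen classes are therefore neither an upper nor a lower limit of the host share.

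For the lower genes the reading turned on NFKBIE-wt spleen 4. With 8 libraries 1 of 194 was low in culture and none was not seen (0.515% against 1.93% of all genes below 0), and 186 (95.9%) were present, against 94.5%. Leaving NFKBIE-wt in vitro 3 out of the reference, chosen after seeing the data, gave 3 low (1.55%), and the median of all 6 cultures gave 8.76% low or not seen. With 7 libraries 82 of 415 were low and 2 not seen (20.2% against 3.62%), and 252 (60.7%) were present, against 90%. All 6 erythroid calls were in that class. Here the reference without NFKBIE-wt in vitro 3 gave 59 not seen and 36 low (22.9%), and the median of all 6 cultures 32.5%. NFKBIE-wt spleen 4, which the 7-library calls did not use, was nearer to the other NFKBIE-wt spleens than to the NFKBIE-ko spleens for 245 of the 378 higher and 169 of the 415 lower genes. Split by class, it was nearer to the NFKBIE-wt spleens for all 67 higher and for none of the 84 lower genes that were low or not seen in culture, and for 102 of 231 higher and 166 of 252 lower genes that were present. Genes scarce in culture were thus low in that library whichever way they differed between the genotypes.

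The functional groups differed in these classes. With 7 libraries, 8 of the 10 higher cytotoxic and NK genes were low or not seen in the NFKBIE-ko cultures and none was present. In contrast, 9 of 13 higher NF-κB targets were present and 2, Ccl3 and Ccl4, were low or not seen. Of 14 higher interferon genes 7 were present and 2 low or not seen, and of 8 higher TNF superfamily genes 6 were present and none was low. Chemokines and cytokines were split, with 4 of 11 present and 5 low or not seen (Ccl3, Ccl4, Ccl5, Cxcl9 and Ifng), and 3 of the 5 higher checkpoint genes were low or not seen (Tigit, Havcr2 and Tox). C3 and Cfb were low in culture, at 0.481 to 0.815 and 0.0815 to 0.569 CPM. By the marker lists themselves, which include red cell, platelet and stromal genes, 12 of 171 and 22 of 378 higher genes, and none of 194 and 8 of 415 lower genes, were on a host list. Of these, 6 of the 12 and 15 of the 22 higher and 7 of the 8 lower genes were low or not seen in culture, and others, such as Tcf7, Adgre1 and Ms4a6c, were present in the NFKBIE-ko cultures. Entering the summed host markers of each library as a covariate gave 273 higher and 369 lower genes with 8 libraries and 155 higher and 213 lower with 7, of which 145 and 185 were among the 378 and 415.

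**Figure D4:**
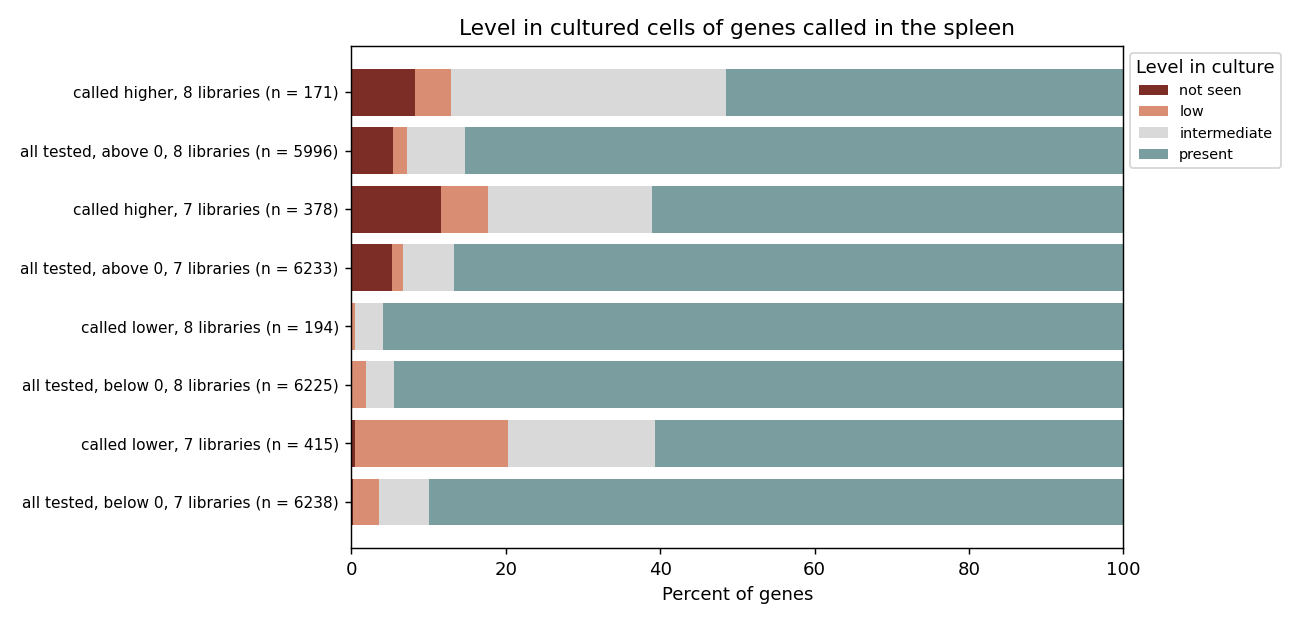
Stacked bars give the percent of genes not seen, low, intermediate or present in culture, for genes called higher or lower in the spleen and for all tested genes with a fold change of the same sign. Low and not seen genes make up 12.9% and 17.7% of the higher calls with 8 and 7 libraries, and 0.515% and 20.2% of the lower calls.

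The called genes were also looked up in the PC, in libraries the calls had not used, though from transplants of the same propagated cells. The mean log2 CPM differed in the same direction in the PC for 95.3% of the 171 and 95% of the 378 higher genes, and for 87.1% of the 194 and 76.1% of the 415 lower genes, against 64.1% and 66.8% of all tested genes. In vitro the shares were 78.4% and 75.1% for higher and 93.3% and 95.2% for lower genes, against 64.1% and 69.4%. Without NFKBIE-wt in vitro 3 the lower genes agreed in sign for 89.2% and 84.3%. Cxcl9 had PC means of 4.01 CPM in the edited and 0.0421 CPM in the mock libraries, and Camk2b of 6.51 and 46.4 CPM. Cd93 had the opposite order there, at 68.5 CPM in the edited and 39.9 CPM in the mock libraries.

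Chromosome 5 was shifted as a whole between the genotypes. The median log2 fold change of its 780 genes tested with 8 libraries was -0.302, with 80.3% of the genes below 0, and -0.339 over 788 genes with 7 libraries, with 81.7% below 0, against medians of 0.00394 and 0.0129 over the chromosomes other than 5 and 18. Genes called lower made up 3.08% and 5.84% of its tested genes, against 1.52% and 3.18% elsewhere. The shift ran along the chromosome, with a median between -0.628 and -0.251 in every 10 Mb bin that held at least 6 genes in the 7-library comparison. On the scale of log2(CPM + 1), relative to the mean of the 8 spleens, the 643 expressed genes of chromosome 5 had medians of -0.154, -0.14, -0.164 and -0.135 in NFKBIE-ko spleens and 0.218, 0.18 and 0.202 in NFKBIE-wt spleens 1 to 3. NFKBIE-wt spleen 4 was between them at -0.0316. The NFKBIE-ko PC libraries and cultures were at -0.198 to -0.162, and the NFKBIE-wt PC libraries and NFKBIE-wt in vitro 1 and 3 at 0.206 to 0.262. NFKBIE-wt in vitro 2, the culture without Fermt2, was at -0.176.

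Chromosome 18 moved the other way, with median log2 fold changes of 0.152 over 292 genes and 0.298 over 296 genes, but its levels did not follow the genotype in every library. NFKBIE-wt spleen 4 and NFKBIE-wt in vitro 2 had the highest medians, 0.251 and 0.3, close to the NFKBIE-ko cultures at 0.186 to 0.249. NFKBIE-ko spleens were at 0.0637 to 0.154 and NFKBIE-wt spleens 1 to 3 at -0.276 to -0.187. NFKBIE-wt in vitro 1 and 3 were at -0.0794 and -0.234. In the PC, NFKBIE-ko libraries were at -0.0381 to 0.022 and NFKBIE-wt libraries at -0.316 to -0.213. Whether the number of copies of either chromosome differed between the cells was not tested.

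**Figure D5:**
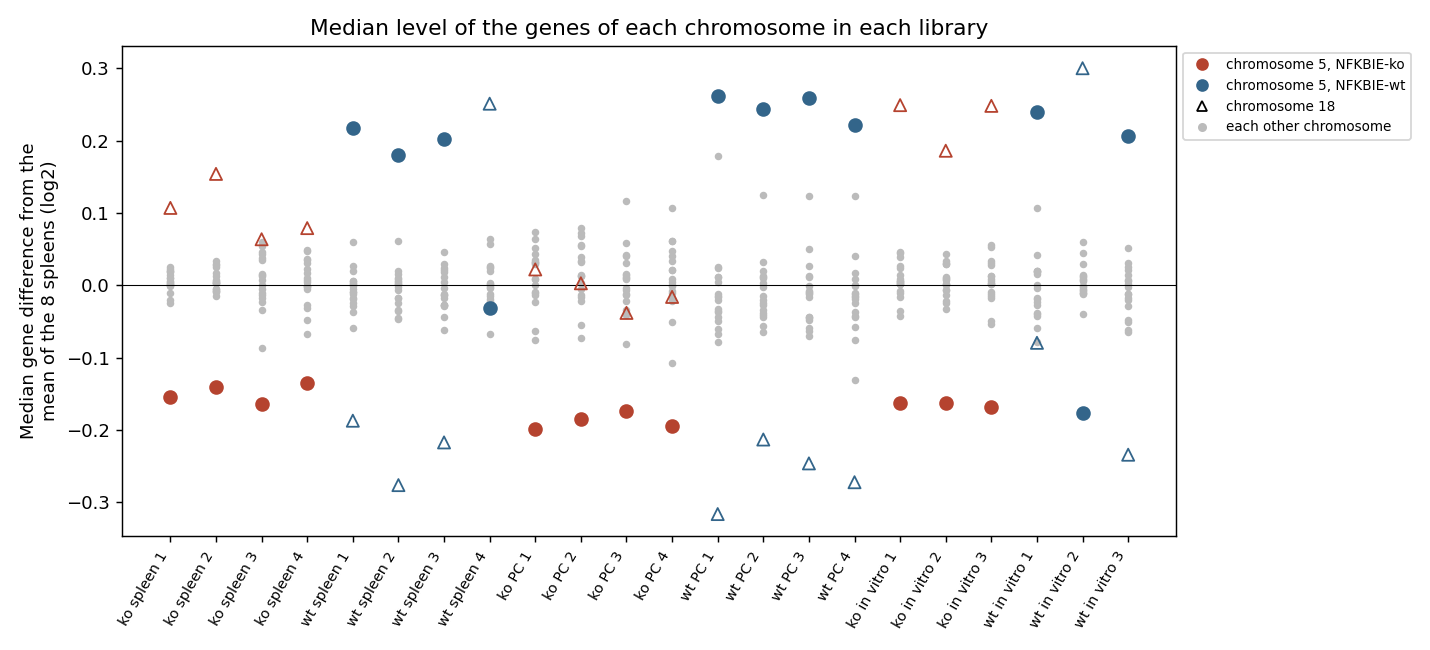
For each of the 22 libraries, the median difference (log2) of the expressed genes of each chromosome from the mean of the 8 spleens. Chromosome 5 (filled circles) is at -0.198 to -0.135 in every NFKBIE-ko library and at 0.18 to 0.262 in the NFKBIE-wt libraries except NFKBIE-wt spleen 4 (-0.0316) and NFKBIE-wt in vitro 2 (-0.176), and chromosome 18 is drawn as open triangles.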

How the data were processed

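RNA-seq libraries from NFKBIE-ko and NFKBIE-wt spleens (4 each) were compared, with 6 cultures and 8 PC libraries for reference. The authors quantified transcripts with Salmon 1.8 on GRCm39 and deposited expected counts (estimated counts per transcript) without normalization. Salmon shares reads between similar transcripts, so genes with near-identical copies are uncertain. Of the 62492 transcripts deposited, each above 0 in at least 5 libraries, 62147 matched GENCODE vM39 and were summed to 17023 genes and rounded. The rest held 0.619% of counts and entered only the fit per transcript. The labels give reads of 150 bases and the study's methods a shorter length.

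Genes were tested with edgeR 4.0.16 in R 4.3.3 (default filter, TMM scaling, robust quasi-likelihood), with 8 and with 7 libraries, and called where the adjusted p was under 0.05 with a more than 2-fold difference. Standard errors were derived from the F statistic. Levels are TMM-scaled CPM over all 22 libraries, for comparing 1 gene between libraries and not genes with each other. SDs and p-values measure the spread between libraries, each taken as 1 recipient mouse. They do not measure the spread between propagations or between edits. The bound given for Grb10 is a ratio of means without an interval. Total counts per library were 24036763 to 26581304, and no 2 spleen libraries of a group were alike within sampling noise.

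The named genes were Nfkbie, the 10 protein-coding genes with the largest fold change per direction and fit (at least 5 CPM in the higher group, no overlap), and per gene list up to 4 called members per direction with the highest level, or the 2 highest where none was called. The members, gene lists and tests were chosen with earlier results of these data known, so agreement with those results is not independent. The fits were tested on simulated counts. Alternatives were DESeq2 1.42.0, RLE size factors, other filters, a fit of all libraries, a replicate block, a host marker covariate, no fold threshold, transcripts, other culture cut-offs and each library left out. Purified leukemia cells were not analysed here. Some genes are not reported here.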

Additional observations from a re-analysis of the deposited data

Results flagged for a closer look

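Values of 1 library lay far from the other 3 of their group, by Dixon's criterion for groups of 4, in 34 cases. The check covered 98 genes, the host marker sum, the cell-type lists and the chromosome 5 median in 2 groups, and chance flags about 1 in 20 groups. The genes checked were Nfkbie and the named genes called with 8 or 7 libraries. Many of them were called only without NFKBIE-wt spleen 4, a choice that favors genes for which that library stands apart. The rate of 1 in 20 does not apply to those genes. Most of the cases fell on NFKBIE-wt spleen 4. It was above the other NFKBIE-wt spleens, in CPM, for Nfkbie (123), Pou2af3 (7.59), Cd93 (194), B3galt5 (29.5), Pla2g2d (6.59), Axin2 (21.4), Kynu (4.1), Adgre1 (12.7), Ms4a6c (27.4), Ccl22 (107), Icam1 (65.6), Ciita (84.5), Rasgrp3 (198), Nr4a3 (6.02), Pdia6 (37.9), Sel1l (773), Trib3 (6.86) and Egln3 (21.7). It was below them for the median of chromosome 5 (-0.0316).

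Among the NFKBIE-ko spleens, NFKBIE-ko spleen 3 was highest for the summed cytotoxic and NK list (168 CPM), Gzmb (53.6 CPM), Cd8a (10.6 CPM), Cxcr6 (4.7 CPM) and Igtp (76.2 CPM). NFKBIE-ko spleen 1 was highest for C3 (120 CPM) and Fermt2 (0.269 CPM, the others at 0) and lowest for S1pr2 (3.31 CPM). NFKBIE-ko spleen 2 was lowest for Nfkbie (54.7 CPM), Nfkb2 (272 CPM) and the summed plasma cell list (1320 CPM). Among the NFKBIE-wt spleens, replicate 1 was lowest for the plasma cell list (1740 CPM) and highest for Usp18 (1.57 CPM), replicate 3 lowest for the B-cell list (9990 CPM) and replicate 2 highest for Cxcr6 (1.79 CPM).

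Outside the spleen comparison, the summed erythroid list was at 1800 CPM in NFKBIE-wt in vitro 3, against 279 to 356 CPM in the other 5 cultures.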

How the results depend on the processing

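For genes higher and lower with 8 libraries (171 and 194), DESeq2 called 379 and 344, the fit of all libraries 333 and 328, the host marker covariate 273 and 369 and no fold threshold 281 and 382. The replicate block called 46 and 43, the test per transcript 47 and 57, and a stricter filter 98 higher. For 7 libraries (378 and 415), fewer were called with the stricter filter (197 and 218), the replicate block (129 and 121), the host marker covariate (155 and 213) and per transcript (126 and 131), and more without the fold threshold (684 and 833). Same-numbered spleens did not deviate together (correlations of their deviations 0.0175, -0.297, -0.256 and 0.0547), so the numbers were not taken as pairs and the block is given only here. Without 1 library, counts ranged from 50 to 378 and 59 to 415 with 8 libraries, and from 256 to 499 and 289 to 523 with 7. Of the genes called with 8 libraries, 171 of 171 and 194 of 194 were among DESeq2's calls, and 46 of 46 and 43 of 43 block calls were among them. The cause of these moves was not tested.

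The percent of called genes low or not seen in culture moved, with low meaning under 20% of the spleen level, to 20.5 (higher) with 8 libraries and 22.8 (higher) and 26 (lower) with 7, and, with under 5%, to 0 and 14.9 for lower genes. With the median of all 6 cultures it was 8.76 and 32.5 for lower genes. Without NFKBIE-wt in vitro 3 it was 1.55 and 22.9 for lower genes and 12.9 and 17.7 for higher ones. Of the named calls, 21 of 58 with 8 and 66 of 99 with 7 libraries were kept in every fit that left out 1 library, and none changed sign. Changes of genes near the floor of 3 counts were not detectable at this depth.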
